A study of Mus musculus with 2 samples.

Results

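The cell division genes described here are 42 mouse genes that cells use to copy their DNA, to pack it and to divide, out of 32285 gene rows in the count matrix of a library of CD64+ thymus cells. They were chosen by name, as genes of the cell cycle. They fall into an S phase set of 14 genes (Tyms, Mcm2 to Mcm7, Pcna, Pclaf, Rrm1, Rrm2, Uhrf1, Dut and Tk1), a set of 3 replication-dependent histone genes (Hist1h1b, Hist1h2ae and Hist1h2ap) and a G2/M set of 23 genes. Stmn1 and H2afx stand outside these sets. All 42 had at least 1 unique molecular identifier (UMI, a tag that marks 1 captured RNA molecule) in the cells kept, and together they held 31956 of 8517422 UMIs, or 0.375%.

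Cells were sorted for CD64 from the dissociated thymus of adult C57BL/6 mice (C57BL/6J in the series' design text) and made into 10x Genomics Chromium Single Cell 3′ libraries, one dated 2021 and one 2024. Both carry the cell type label "Macrophage", and no treatment or genotype other than the strain is given. The 2021 library supplies every value below. The gene names and barcodes of the 2024 library were not used here, so barcodes shared by the libraries were not counted, and the labels do not say how many animals either library holds.

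The 2021 library held 3214 barcodes with a median of 2157.5 UMIs and 886 genes, and the 2024 library 2815 barcodes with a median of 5312 UMIs. Of the 2021 barcodes, 3188 (99.2%) were kept, with no fewer than 500 UMIs and 300 genes and no more than 10% of UMIs from mitochondrial genes. Clustering without 302 cell cycle genes, the 42 included, gave 14 clusters in 8 classes named by their markers: 887 conventional dendritic cell (DC)-like cells, 530 monocyte-like, 502 neutrophil-like, 380 T lineage-like, 367 macrophage-like, 297 NK and ILC-like, 214 B lineage-like and 11 mast cell or basophil-like. By these names 367 cells were of the labelled cell type, and at finer clustering 95 of them fell into a cluster led by Cxcl9 whose markers were monocyte-like. With 1 library there is no spread between samples and no test, so every interval below is an exact 95% interval that covers counting error only.

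A dividing cell copies its DNA in S phase, pauses in G2 and separates the copies in mitosis (M). E2F factors switch on genes of DNA synthesis at the start of S phase, and the replication-dependent histone genes are read while DNA is being copied. A later wave of genes for the mitotic spindle and chromosome separation follows, many of them under the DREAM and B-Myb-FoxM1 complexes, which bind CHR elements. In the thymus, immature T cells are known for repeated rounds of division, and monocytes and neutrophils are known to leave the cycle as they mature.

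Promoters are shown for the 2 S phase genes and the 2 G2/M genes with the most UMIs among those that held the element searched for their set, because the sets differ in these elements. Each sequence is from RefSeq on GRCm38.p6 and runs 5′ to 3′ on the gene's strand, from 176 bases before the annotated start to 24 bases after it. Pclaf lies on the + strand (chr9:65890147-65890346), Mcm7 on the - strand (chr5:138171860-138172059), Top2a on the - strand (chr11:99024166-99024365) and Ube2c on the + strand (chr2:164769753-164769952). Capitals mark an E2F word in Pclaf and Mcm7 and a CHR word in Top2a and Ube2c.
Pclaf: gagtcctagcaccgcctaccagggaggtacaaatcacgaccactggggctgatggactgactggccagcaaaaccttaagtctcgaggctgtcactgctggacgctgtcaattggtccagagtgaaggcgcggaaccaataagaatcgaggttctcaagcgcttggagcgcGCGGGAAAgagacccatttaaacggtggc
Mcm7: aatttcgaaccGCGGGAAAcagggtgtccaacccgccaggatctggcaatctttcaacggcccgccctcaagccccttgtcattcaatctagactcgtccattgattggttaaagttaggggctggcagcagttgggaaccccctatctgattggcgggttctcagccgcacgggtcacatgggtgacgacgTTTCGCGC
Top2a: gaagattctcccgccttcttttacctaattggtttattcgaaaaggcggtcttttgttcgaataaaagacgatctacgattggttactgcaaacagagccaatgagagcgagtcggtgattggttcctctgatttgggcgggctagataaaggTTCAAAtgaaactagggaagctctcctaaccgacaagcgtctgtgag
Ube2c: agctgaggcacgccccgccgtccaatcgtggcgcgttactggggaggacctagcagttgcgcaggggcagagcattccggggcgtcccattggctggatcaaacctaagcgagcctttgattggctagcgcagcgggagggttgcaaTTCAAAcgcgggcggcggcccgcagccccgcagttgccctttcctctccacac

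The E2F words searched were TTTCCCGC, TTTGGCGC, TTTCGCGC and TTTGCCGC, the CHR word was TTTGAA, and the third was CCAAT, each on both strands of a window from 250 bases before to 50 bases after the start. Matches on opposite strands overlapped in Mcm5 and Mcm6 for the E2F words. Of the 42 genes, 35 matched a RefSeq gene by symbol or gene ID. The unmatched genes were Mcm4, Ccna2, Aurkb, Spc24, Tpx2, Stmn1 and H2afx. An E2F word stood in 6 of 13 S phase promoters (46.2%: Pclaf, Mcm3, Mcm5, Mcm6, Mcm7 and Uhrf1), in 2 of 19 G2/M promoters (10.5%: Cdk1 and Cenpm), in 0 of 3 histone promoters and in 2.61% of all 27025 genes with a window. The CHR word stood in 14 of 19 G2/M promoters (73.7%), in 3 of 3 histone promoters, in 1 of 13 S phase promoters (Mcm2) and in 20.2% of all genes. CCAAT stood in 17 of 19 G2/M, 10 of 13 S phase and 3 of 3 histone promoters, against 41.1% of all genes. In Pclaf the E2F word began 5 bases before the start, and in Top2a and Ube2c the CHR word shown began 23 and 29 bases before it. A match is a description of the letters, not a bound site.

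All 42 genes were highest in the T lineage-like class. The S phase genes summed to 3849.6 UMIs per 1000000 UMIs of the class (CPM; 3712.6 to 3990.4) in T lineage-like cells, 808.5 in DC-like, 764.8 in monocyte-like, 631.7 in neutrophil-like, 446.6 in B lineage-like, 357.9 in macrophage-like and 298.4 CPM in NK and ILC-like cells. The histone genes summed to 5412 CPM in T lineage-like cells and next to 1524.9 (1458.5 to 1593.6) in monocyte-like cells, while the macrophage-like sum, 263.7 (234.2 to 295.8), was the lowest of the 7 large classes. The G2/M genes summed to 4573.3 CPM in T lineage-like, 1088.2 (1032.2 to 1146.5) in monocyte-like, 1027.6 (973 to 1084.6) in neutrophil-like, 642 in DC-like and 289 CPM in macrophage-like cells. For each of the 42 genes the intervals of all 6 other large classes lay wholly below that of the T lineage-like class. The monocyte-like and neutrophil-like G2/M intervals overlapped, as did the DC-like (777.8 to 840) and monocyte-like (717.9 to 813.9) S phase intervals. The 11 mast cell or basophil-like cells had no UMI of any of the 3 sets in 11330 UMIs, an interval that reaches 325.6 CPM.

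By point levels, the classes below the T lineage ranked differently by phase. The second places that follow do not weigh overlap of intervals. Of the 14 S phase genes, 11 had the DC-like class second, with the monocyte-like class second for Pclaf and the neutrophil-like class for Rrm1 and Rrm2. All 3 histone genes had the monocyte-like class second. Of the 23 G2/M genes, 13 had the neutrophil-like class second, 9 the monocyte-like and 1 (Cenpm) the DC-like class. The second places of the monocyte-like and DC-like classes rest on clusters made without the cycle genes. With all genes, 115 cells formed a cluster of their own that no marker list named, of which 52 were monocyte-like and 57 DC-like cells by the clusters used here and 112 of the 113 deep enough were division-positive by the call defined below. In that clustering the monocyte-like sums were 284.9 CPM for S phase, 81.15 for histone and 203.8 CPM for G2/M genes, and the DC-like sums 509.4, 73.84 and 165.8 CPM. Among the 5 largest classes the neutrophil-like class was then second for all 3 sets, at 624.3, 798.9 and 1028.1 CPM. The unnamed cluster was not ranked with these classes, and its sums were not computed. The ratio of summed S phase to summed G2/M UMIs was 1.26 (1.19 to 1.33) in DC-like and 1.24 (1.07 to 1.44) in macrophage-like cells. It was 1.299 (1.055 to 1.602) in B lineage-like and 1.377 (0.9992 to 1.905) in NK and ILC-like cells. In contrast it was 0.842 (0.802 to 0.884) in T lineage-like, 0.703 (0.647 to 0.763) in monocyte-like and 0.615 (0.563 to 0.671) in neutrophil-like cells. Among division-positive cells it was 1.057 in DC-like, 0.8615 in T lineage-like, 0.6293 in monocyte-like and 0.5345 in neutrophil-like cells. In the 19 such macrophage-like cells it was 0.7116 (0.5746 to 0.8796). Pcna alone made up 108.3 of 350.1 S phase CPM in the macrophage-like Ccl12 cluster and 136.7 of 388.2 in the Gdf15 cluster. Among the 5 largest classes, the histone to G2/M ratio was highest in monocyte-like cells at 1.40 (1.31 to 1.5) and lowest in neutrophil-like cells at 0.777 (0.715 to 0.843).

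**Figure D1:**
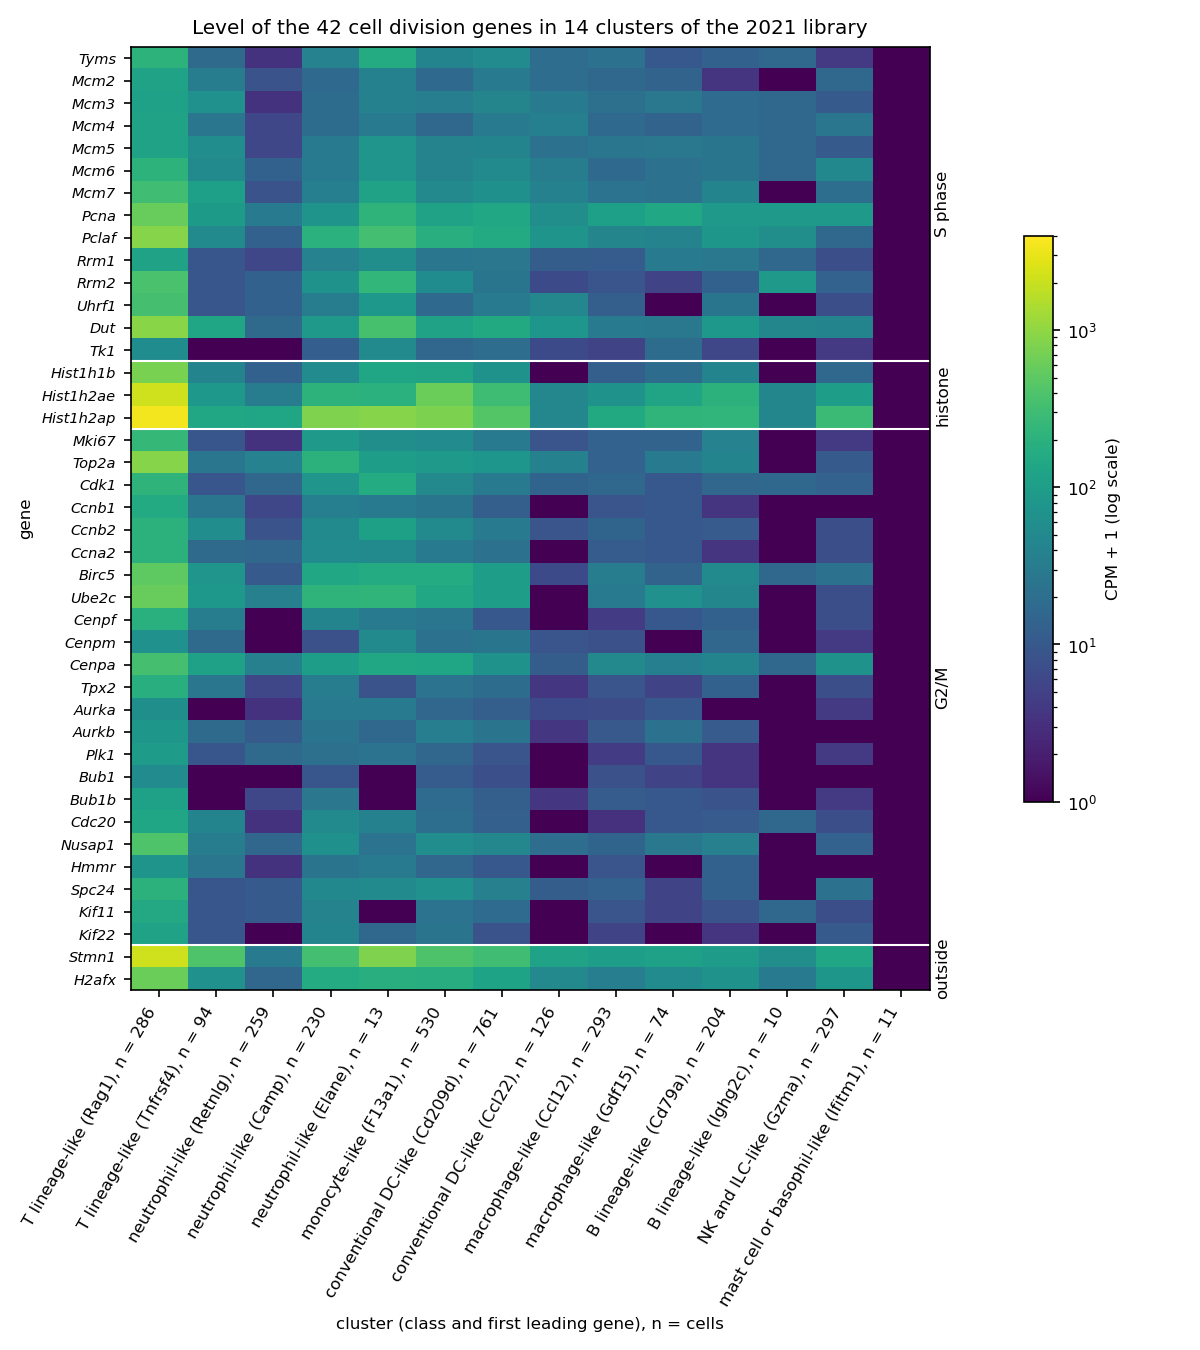
Level of each of the 42 genes (rows, grouped by phase) in each cluster (columns), as CPM + 1 on a log colour scale. The cluster led by Rag1 is the highest column for all 3 sets, and the clusters led by Ccl22 and Retnlg are dark in most G2/M rows, which marks low levels.

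Among the S phase genes, Pclaf (ENSMUSG00000040204), a small protein that binds the replication clamp, had the most UMIs, 1587. It stood at 749.5 CPM (689.7 to 813.1) in T lineage-like, 185.6 in monocyte-like, 152.5 in neutrophil-like, 148.3 in DC-like, 77.58 in B lineage-like, 41.68 in macrophage-like and 15.7 CPM in NK and ILC-like cells. Dut (ENSMUSG00000027203), the dUTPase that keeps uracil out of DNA, stood at 781.8 (720.7 to 846.7) in T lineage-like, 143.1 in DC-like, 118.6 in monocyte-like, 91.02 in neutrophil-like, 77.58 in B lineage-like, 40.83 in NK and ILC-like and 28.09 CPM in macrophage-like cells. Both had the macrophage-like and NK and ILC-like classes lowest, but the DC-like class was second for Dut and stood below the monocyte-like and neutrophil-like classes for Pclaf. Counting error leaves unsettled the order of DC-like and monocyte-like cells for Dut and of DC-like and neutrophil-like cells for Pclaf.

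Pcna (ENSMUSG00000027342), the sliding clamp of DNA polymerases that also serves DNA repair, had a flatter pattern. It stood at 498.8 CPM (450.3 to 551.1) in T lineage-like, 127.7 (115.7 to 140.6) in DC-like, 116.3 (98.49 to 136.4) in monocyte-like, 114.2 (95.1 to 135.9) in macrophage-like, 88.06 in B lineage-like, 84.8 in NK and ILC-like and 73.13 CPM in neutrophil-like cells. The DC-like, monocyte-like and macrophage-like intervals overlapped, so these counts do not settle the order of these neighbours. The other 11 S phase genes had 135 (Tk1, thymidine kinase of the salvage pathway) or more UMIs each. The T lineage-like class, 380 of 3188 cells, held from 24.8% (Mcm5, a subunit of the replicative helicase) to 55.4% (Uhrf1, which carries DNA methylation over to new strands) of an S phase gene's UMIs.

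Among the histone genes, Hist1h2ap (ENSMUSG00000094777), an H2A gene, stood at 2894.7 CPM (2776 to 3017.1) in T lineage-like, 778.6 (731.4 to 828.1) in monocyte-like, 595.9 (554.4 to 639.6) in neutrophil-like, 389.3 in DC-like, 282.7 in NK and ILC-like, 205.5 in B lineage-like and 168.5 CPM in macrophage-like cells. Hist1h2ae (ENSMUSG00000069272), also an H2A gene, stood at 1869.9 in T lineage-like, 621.5 in monocyte-like, 274.8 in DC-like, 180.3 in B lineage-like, 154 in neutrophil-like, 103.6 in NK and ILC-like and 82.45 CPM in macrophage-like cells. The H2A genes are near-identical copies of a family, so the split of reads between them is uncertain.

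Hist1h1b (ENSMUSG00000058773), which encodes the linker histone H1.5, stood at 647.4 CPM (592 to 706.7) in T lineage-like, 124.8 in monocyte-like, 60.63 in DC-like, 48.23 in neutrophil-like, 35.64 in B lineage-like, 15.7 in NK and ILC-like and 12.68 CPM in macrophage-like cells. Most replication-dependent histone messages lack the poly(A) tail on which this chemistry primes, so these counts cover only the molecules it captured, and how that share varied between classes was not tested.

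Among the G2/M genes, Top2a (ENSMUSG00000020914), the topoisomerase that untangles DNA before separation, stood at 761.1 CPM (700.9 to 825.2) in T lineage-like, 139.2 in neutrophil-like, 86.26 in monocyte-like, 73.55 in DC-like, 35.64 in B lineage-like, 16.31 in macrophage-like and 9.422 CPM in NK and ILC-like cells. Ube2c (ENSMUSG00000001403), the ubiquitin-conjugating enzyme of the anaphase-promoting complex, stood at 494.9 in T lineage-like, 158.7 in neutrophil-like, 139.4 in monocyte-like, 88.02 in DC-like, 37.74 in B lineage-like, 37.15 in macrophage-like and 6.282 CPM in NK and ILC-like cells. Birc5 (ENSMUSG00000017716), survivin of the chromosomal passenger complex, stood at 448.4 in T lineage-like, 162.5 in monocyte-like, 99.58 in neutrophil-like, 91.4 in DC-like, 46.13 in B lineage-like, 28.99 in macrophage-like and 21.99 CPM in NK and ILC-like cells. Neutrophil-like and monocyte-like cells thus exchanged second place among the 3 G2/M genes with the most UMIs, and their Ube2c intervals (137.7 to 182 and 119.8 to 161.3) overlapped. The G2/M genes ran from 81 UMIs (Bub1, a spindle checkpoint kinase) to 1157 UMIs (Top2a), and the T lineage-like share of their UMIs from 26.3% (Aurkb, the passenger complex kinase) to 56.0% (Cenpf, a kinetochore protein).

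Stmn1 (ENSMUSG00000028832), the microtubule destabiliser stathmin, stood at 1929.3 CPM in T lineage-like, 388.2 in monocyte-like, 292.4 in DC-like, 283.2 in neutrophil-like, 135.1 in NK and ILC-like, 102.4 in macrophage-like and 92.25 CPM in B lineage-like cells. H2afx (ENSMUSG00000049932), the H2A variant phosphorylated at DNA breaks, stood at 529.8 in T lineage-like, 174.1 in monocyte-like, 118.2 in neutrophil-like, 112.6 in DC-like, 78.52 in NK and ILC-like, 62.9 in B lineage-like and 38.05 CPM in macrophage-like cells. Both followed the order of the histone genes in their first 2 places.

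Within the T lineage-like class the signal lay in the cluster led by Rag1, the recombinase gene of immature lymphocytes, which also held Dntt and Trbc2. Its 286 cells summed to 4444.7 CPM for S phase, 6369.7 for the histone and 5306 CPM for G2/M genes, while the 94 cells led by Tnfrsf4 summed to 650.9, 263.6 and 634.4 CPM. All 42 genes were at least 2-fold higher in the Rag1 cluster than in all other cells, where 16.8% of the 11126 genes compared were (median log2 ratio 2.46 over the 42 and 0.27 over all genes). In this and the following ratios 10 CPM was added to both sides, and genes with under 15 UMIs in the cells compared were left out. In the Tnfrsf4 cluster 40 of 42 were at least 2-fold lower than in the Rag1 cluster, against 22.2% of genes. The exceptions were Mcm3 and Mcm5, helicase subunits, with log2 ratios of -0.70 and -0.92. Top2a stood at 24.72 CPM (3 UMIs) in the Tnfrsf4 and 898.1 CPM in the Rag1 cluster. The clusters had like median depths, 1049 and 1053.5 UMIs.

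Among neutrophil-like cells the genes separated the cluster led by Camp, Ltf and Ngp, granule genes of immature neutrophils, from the one led by Retnlg and Mmp8. Summed G2/M genes stood at 1409 CPM in the 230 Camp cells and 240.9 CPM in the 259 Retnlg cells, S phase genes at 689.6 and 127.7, and histone genes at 1073.8 and 175.9 CPM. Of the 38 genes with enough UMIs, 32 were at least 2-fold lower in the Retnlg cluster, against 5.75% of genes. Hist1h2ap stood at 132.5 CPM in Retnlg and 806.3 CPM in Camp cells. Pclaf stood at 12.05 and 198.2 CPM in the same order. Plk1, a mitotic kinase, stood at 16.86 and 20.36 CPM, a log2 ratio of -0.18. The 5 Retnlg cells with the most S phase and G2/M UMIs held 77.1% of these UMIs in their cluster, against 17.9% for the top 5 Camp cells, so the Retnlg level rests on few cells. Median depth also differed, at 1314 UMIs in Retnlg and 2485 in Camp cells, and its part in the difference was not tested.

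The Camp cluster leaned towards G2/M. Against all other cells outside the T lineage-like class, 12 of 42 genes were at least 2-fold higher in Camp cells, where 4.41% of genes were, and these were 11 of 23 G2/M genes and 1 of 14 S phase genes (Rrm2, a subunit of ribonucleotide reductase). None of the 3 histone genes was. The largest ratio was that of Top2a, 202.3 against 59.8 CPM (log2 1.61). It was followed by Cdc20, the activator of the anaphase-promoting complex, at 50.23 against 10.85 CPM, and by Kif22, a chromosome-moving kinesin, at 40.72 against 8.706 CPM. The S phase to G2/M ratio of UMIs was 0.489 (0.439 to 0.545) in the Camp cluster. A small cluster of 13 cells led by Elane, Prtn3 and Mpo, enzymes of early granulocyte granules, leaned the other way, with 1877.2 CPM of S phase and 1368.7 CPM of G2/M genes. Its median depth was 9770 UMIs, and 1 of its 13 cells drew over 1% of its UMIs from B lineage markers.

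In the monocyte-like class the genes highest against the rest were mainly histone genes. Against all other cells outside the T lineage-like class, 5 of 42 genes were at least 2-fold higher, where 1.84% of genes were. These were the 3 histone genes, with log2 ratios of 1.58 for Hist1h2ae, 1.27 for Hist1h1b and 1.04 for Hist1h2ap, and 2 G2/M genes, Spc24 of the kinetochore and Birc5. None of the 14 S phase genes was. Finer clustering divided these cells into 329 led by F13a1, Fn1 and Vcan and 193 led by Ace and Treml4, genes of the patrolling kind of monocyte. In the Ace cells 36 of the 41 genes with enough UMIs were at least 2-fold lower than in the F13a1 cells, against 5.16% of genes.

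Single genes show the size of this difference. Hist1h2ap stood at 20.45 CPM (8.22 to 42.13) in Ace and 1066.8 (1001.3 to 1135.3) in F13a1 cells, Pclaf at 2.921 (1 UMI) and 258.6, and Top2a at 5.84 and 114.2 CPM. Rrm2 had 0 UMIs in Ace cells and 72 in F13a1 cells. Pcna differed less, with 64.3 CPM in Ace and 139 CPM in F13a1 cells. The Ace cells were shallower, with a median of 1566 against 2384 UMIs.

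Among DC-like cells the largest cluster, 761 cells led by Cd209d, had no gene of the 42 at least 2-fold higher than in other cells outside the T lineage-like class, where 1.84% of genes were. Its median log2 ratio was 0.51 over the S phase genes, 0.26 over the histone genes and 0.00 over the G2/M genes, against -0.02 over all genes. At finer clustering it split into 504 cells led by Mmp12 and Xcr1 and 240 cells led by Cd209d and Siglech that carried plasmacytoid DC markers. The Mmp12 cells summed to 948.9 CPM of S phase and 872.8 CPM of G2/M genes, and the Siglech cells to 672.5 and 377.5 CPM.

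The 126 DC-like cells led by Ccl22, Fscn1 and Ccr7, genes of migratory mature DCs, held S phase genes with few histone or G2/M transcripts. Of the 42 genes, 22 were at least 2-fold lower than in other cells outside the T lineage-like class, against 11.4% of genes: all 3 histone genes, 16 of 23 G2/M genes and 1 of 14 S phase genes (Rrm2), with both genes outside the sets. Ube2c had 0 UMIs against 99.3 CPM in the other cells. The median log2 ratio was -0.45 over the S phase genes, -2.85 over the histone genes and -1.16 over the G2/M genes, against -0.20 over all genes. A few single S phase genes stood level or higher, on few UMIs in the 374323 UMIs of this cluster. The helicase subunits Mcm4 and Mcm2 stood at 34.7 against 21.2 and at 18.7 against 19.5 CPM, differences that counting error covers, and Uhrf1 at 45.4 against 22.4 CPM. Summed S phase genes came to 467.5 CPM and G2/M genes to 133.6, a ratio of 3.50 (2.54 to 4.89). Over all cells outside the T lineage-like class these sums were 663.1 and 693.7 CPM, so both were lower in the Ccl22 cluster. The top 5 cells of the cluster held 61.8% of its S phase and G2/M UMIs.

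The macrophage-like clusters had no gene of the 42 at least 2-fold higher than in other cells outside the T lineage-like class. Of all genes, 3.46% were in the cluster led by Ccl12 and 11.7% in the one led by Gdf15. In the 293 cells led by Ccl12, Pf4 and C1qa, 15 of 42 genes were at least 2-fold lower than in other cells outside the T lineage-like class, where 2.29% of genes were, and these were all 3 histone, 3 S phase, 7 G2/M genes and both genes outside the sets. In the 74 cells led by Gdf15, Vcam1, Slc40a1 and Spic, markers of iron-recycling macrophages, 16 of 42 were, against 3.83% of genes. Summed S phase genes stood at 350.1 CPM (312 to 391.5) in the Ccl12 and 388.2 (311.3 to 478.2) in the Gdf15 cluster, and G2/M genes at 285.1 and 304.4 CPM, with overlapping intervals. The histone sums, 234.9 (203.9 to 269.3) and 374.9 (299.5 to 463.6), did not overlap. In NK and ILC-like cells 19 of 42 genes were at least 2-fold lower, against 10.9% of genes, and in the B lineage-like cluster led by Cd79a 7 were, against 8.6%.

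Few cells carried the program. Of the 37 S phase and G2/M genes, 0 were seen in 1682 cells (52.8%) and 1 in 712 cells (22.3%), while 322 cells (10.1%) had UMIs of at least 10 and held 80.5% of the 37 genes' UMIs. These 322 cells comprised 115 T lineage-like, 80 DC-like, 57 neutrophil-like, 54 monocyte-like, 8 macrophage-like, 6 B lineage-like and 2 NK and ILC-like cells. They were deeper than the other 2866 cells, with a median of 5473 against 2030.5 UMIs, so cells were next compared at 1 depth. Each of the 1749 cells with at least 2000 UMIs was thinned at random to 2000, and a cell with at least 3 S phase UMIs from at least 2 genes, or likewise for G2/M, was called division-positive.

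Of 1749 thinned cells, 407 were division-positive (23.3%, 21.3 to 25.3, exact binomial). The share was 83.5% (91 of 109, 75.2 to 89.9) in T lineage-like, 28.8% (61 of 212, 22.8 to 35.4) in neutrophil-like, 26.1% (76 of 291, 21.2 to 31.6) in monocyte-like, 18.6% (147 of 792, 15.9 to 21.5) in DC-like, 12.9% (11 of 85) in B lineage-like and 7.54% (19 of 252, 4.6 to 11.5) in macrophage-like cells. The macrophage-like interval lay below those of the T lineage-like, neutrophil-like, monocyte-like and DC-like classes, and the neutrophil-like and monocyte-like intervals overlapped. With clusters made from all genes the macrophage-like interval, 4.13 to 11.0%, overlapped the monocyte-like (10.3%, 6.82 to 14.7) and DC-like (12.2%, 9.93 to 14.8) intervals. The depth cut kept different shares of the classes, from 2.69% of NK and ILC-like (2 of 8 positive) and 28.7% of T lineage-like to 89.3% of DC-like cells, with 68.7% of the macrophage-like class between them.

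Clusters of a class differed by the same measure. The share was 89.6% (86 of 96) in the Rag1 cluster and 5 of 13 in the Tnfrsf4 cluster. It was 33.1% (47 of 142, 25.4 to 41.5) in Camp and 7.02% (4 of 57, 1.95 to 17) in Retnlg cells, whose intervals did not overlap, and 10 of 13 in Elane cells. It was 32.3% (75 of 232) in the F13a1 monocyte cells and 0 of 52 in the Ace cells. The exact interval of the Ace share reaches 6.85%, and 3 counts of 52, the limit that a count of 0 allows, come to 5.77%. It was 20.1% (140 of 695) in the Cd209d and 7.22% (7 of 97) in the Ccl22 DC cluster. The depth cut kept 33.6% of Rag1, 13.8% of Tnfrsf4, 61.7% of Camp, 22.0% of Retnlg, 91.3% of Cd209d and 77.0% of Ccl22 cells. In the finer clusters it kept 232 of 329 F13a1 and 52 of 193 Ace cells. The shares thus describe the deeper cells only. Of all 286 Rag1 cells, 64.7% had an S phase UMI and 55.9% a G2/M UMI. A Top2a UMI was seen in 43.4% of Rag1 cells and 1.93% of Retnlg cells, whose leading genes are those of mature neutrophils, a cell known not to divide, at median depths of 1053.5 and 1314 UMIs.

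**Figure D2:**
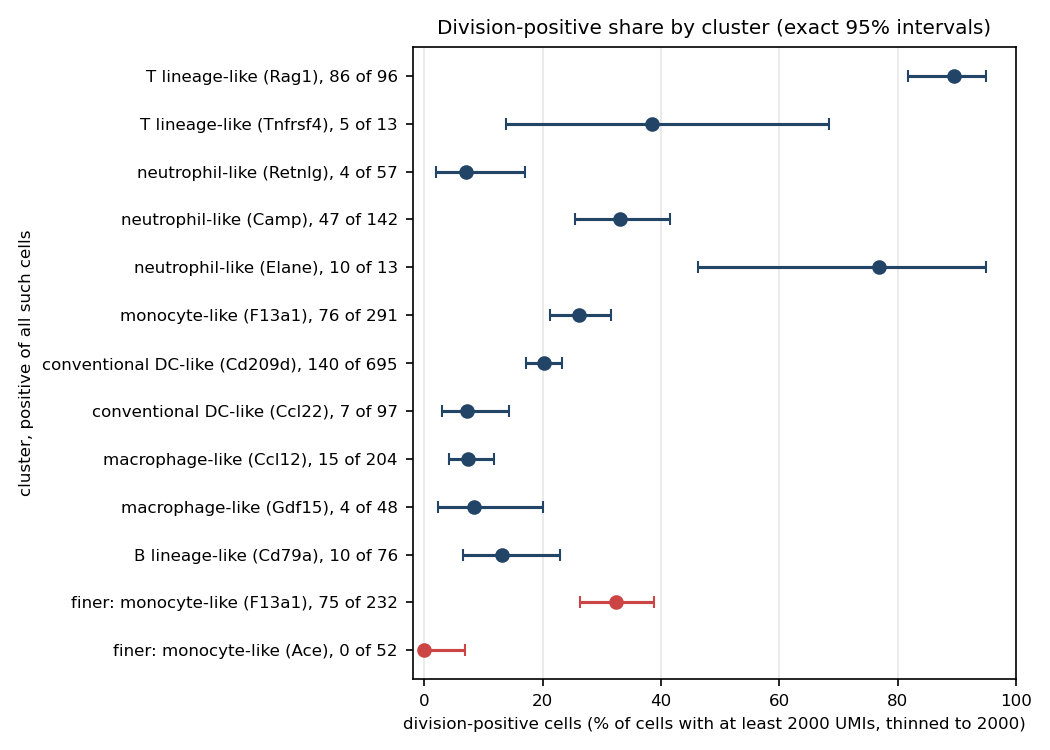
Percent of cells that are division-positive after thinning to 2000 UMIs, by cluster, with exact binomial 95% intervals (bars). Red points are the monocyte-like clusters of the finer clustering. The Rag1 cluster stands at 89.6%, Camp at 33.1%, and Retnlg and Ccl22 near 7%.

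Division-positive cells had more UMIs before thinning than other cells, with medians of 4852 against 3085 over all classes, 6976 against 2902 in neutrophil-like and 3778 against 2995 in T lineage-like cells. Median Scrublet scores, which rate a barcode as a possible doublet of more than 1 cell, were 0.0511 in positive and 0.0465 in other cells over all classes. They were 0.2242 against 0.0324 in the Retnlg cluster (4 positive cells), 0.1312 against 0.0303 in the Ccl22 cluster (7 positive cells) and 0.0488 against 0.0246 in the neutrophil-like class. The part of doublets in these shares was not tested. T lineage markers (20 genes), of the class with the highest division levels, were lower in positive than in other cells of the same class. They summed to 124.2 against 267.3 CPM in DC-like (16 against 20 genes seen), 8.51 against 157.9 in monocyte-like (1 against 20 genes), 46.2 against 178.5 in neutrophil-like and 161.8 against 267.6 CPM in macrophage-like cells. Neutrophil markers were higher in the positive monocyte-like cells, at 6170 against 2834.1 CPM (median cell 1106.6 against 499), and B lineage markers in the positive neutrophil-like cells, at 10291.8 against 260.8 CPM, with 1 Elane cell at 235243.7 CPM. Their part in the results was not tested. Near the threshold, 169 cells had 2 or 3 S phase UMIs and 94 had 2 or 3 G2/M UMIs.

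The phase make-up of division-positive cells differed between classes. Passing by S phase genes only, by both sets and by G2/M genes only were 77, 42 and 28 cells of 147 in the DC-like class (52.4% S phase only, 44 to 60.7), 12, 68 and 11 of 91 in the T lineage-like (74.7% both, 64.5 to 83.3), 15, 31 and 30 of 76 in the monocyte-like, and 10, 18 and 33 of 61 in the neutrophil-like class (54.1% G2/M only, 40.9 to 66.9). Over all 407 positive cells the shares were 30.2%, 40.8% and 29.0%. The DC-like class thus had the largest S phase only share of these 4, and the neutrophil-like class the largest G2/M only share, which was 59.6% in the Camp cluster (28 of 47). In Elane cells 6 of 10 passed by S phase genes only. The 19 macrophage-like cells divided into 4, 5 and 10. These categories are ranges of 2 counts, not stages measured in themselves.

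**Figure D3:**
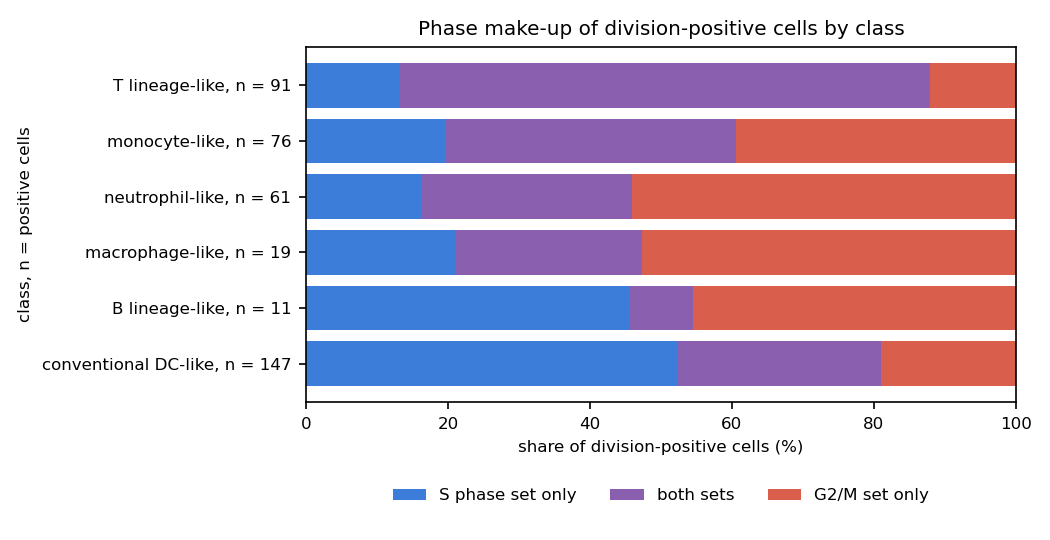
Make-up of division-positive cells by class, as percent passing by S phase genes only, by both sets or by G2/M genes only. DC-like cells have the longest S phase only bar (52.4%), T lineage-like cells the longest bar for both (74.7%) and neutrophil-like cells 54.1% G2/M only.

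The histone genes took no part in these calls, so their levels by phase are a separate measurement. Over all classes their summed level was 1220 CPM in S phase only cells, 6703.7 in cells passing by both sets, 2380.9 in G2/M only cells and 77.8 CPM in the other cells. A histone UMI was seen in 32.5%, 93.4%, 67.0% and 11.1% of these cells after thinning. Cells passing by both sets were highest in each of the 5 large classes. The levels in S phase only, both, G2/M only and other cells were 837, 5768.7, 2016.9 and 57.5 CPM in DC-like cells, and 1648.3, 7992.9, 3991.9 and 136.1 CPM in monocyte-like cells. They were 1456.1, 3390.7, 1709.6 and 143.2 CPM in neutrophil-like cells, and 1006.3, 3999.9, 1700.6 and 48.7 CPM in macrophage-like cells. T lineage-like cells alone of these had a higher level in S phase only than in G2/M only cells, 3732.3 against 2516.1 CPM, with 7977.7 in both and 185 CPM in other cells. That contrast rests on 12 S phase only and 11 G2/M only cells. The macrophage-like levels in S phase only, both and G2/M only cells rest on 4, 5 and 10 cells.

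**Figure D4:**
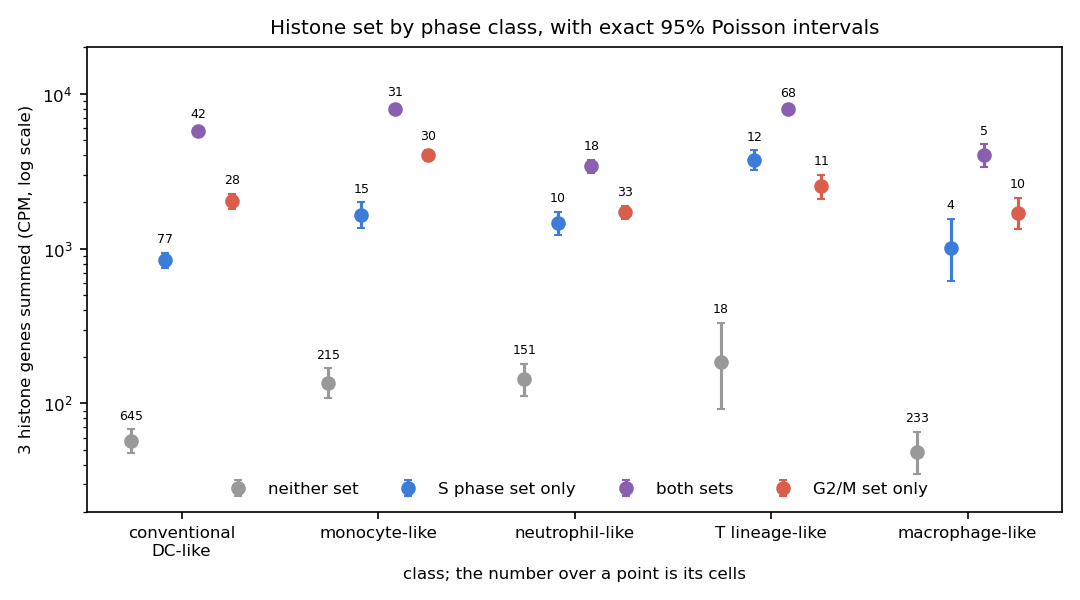
Summed level of the 3 histone genes in CPM, by class and by the phase category that the S phase and G2/M genes gave. Cells passing by both sets are highest in every class drawn, from 3390.7 in neutrophil-like to 7992.9 CPM in monocyte-like cells.

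Each gene was also placed among the phases with its own UMIs left out of the call. Of the 14 S phase genes, 11 were higher in S phase only than in G2/M only cells with intervals apart, and for Pclaf, Rrm1 and Tk1 the intervals overlapped. Of the 23 G2/M genes, 22 were higher on the G2/M only side, and only Cenpm, a centromere protein, overlapped. All 3 histone genes were highest in cells passing by both sets.

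Mcm2 to Mcm6, subunits of the helicase loaded at origins, were the 5 genes highest in S phase only cells, although their intervals there overlapped those of cells passing by both sets. Mcm6 stood at 216.2 CPM in S phase only, 161.6 in both and 22.4 in G2/M only cells, and Mcm2 at 100.2, 84.0 and 17.3 CPM. The other 9, Mcm7 of the same helicase included, were highest in cells passing by both sets. Without the T lineage-like cells Mcm7 and Uhrf1 were also highest in S phase only cells, which left 7 of 14 highest in each. Over all classes, Pclaf stood at 374.2, 1073.6 and 407.2 CPM, Rrm2 at 134.8, 298.2 and 73.8, and Tyms, which makes thymidylate, at 141.6, 245.2 and 42.6 CPM. Pcna stood at 400.1, 477.3 and 65.4 CPM over all classes. Without the T lineage-like cells the S phase only and G2/M only intervals of Rrm2 overlapped, at 121 and 78.2 CPM.

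Pcna and Mcm4 also had much of their RNA outside division-positive cells. Pcna stood at 73.7 CPM in the cells that passed by neither set, and 67.4% of its UMIs in the 1749 cells were in positive cells. That share was 66.1% for Mcm4, the lowest of the set, and 94.9% for Rrm2, the highest. It ran from 95.8% to 97.5% in the histone genes and from 78.7% (Cenpa, the centromeric histone H3) to 98.3% (Plk1) in the G2/M genes.

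Of the G2/M genes, 15 were highest in cells passing by both sets and 8 in G2/M only cells. This split rests on the T lineage-like cells, since without them 9 were highest in both and 14 in G2/M only cells, with Mki67, Cdk1, Cenpf, Tpx2, Bub1b and Kif11 added to the latter. The levels that follow are over all classes. Top2a stood at 144.4 CPM in S phase only, 706.2 in both and 384.6 in G2/M only cells, and Ccna2, cyclin A2, at 32, 184.4 and 112.5 CPM. In contrast Ube2c stood at 31.8, 510.1 and 788.7 CPM, Cenpa at 33.3, 272.5 and 495.2, Cdc20 at 8.2, 86.9 and 139.4, and Ccnb2, cyclin B2, at 17.7, 151.2 and 226.9 CPM. For these 4 genes the G2/M only interval lay above that of both, while for Ccnb1, Aurka, Plk1 and Hmmr, also highest in G2/M only cells, the intervals overlapped. Mki67, the proliferation marker Ki-67, stood at 44.2, 211.8 and 206.3 CPM and so was at about the same level in the latter categories. H2afx stood at 113.1, 612.3 and 502.7 CPM and Stmn1 at 808.4, 1944.3 and 853.1 CPM.

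**Figure D5:**
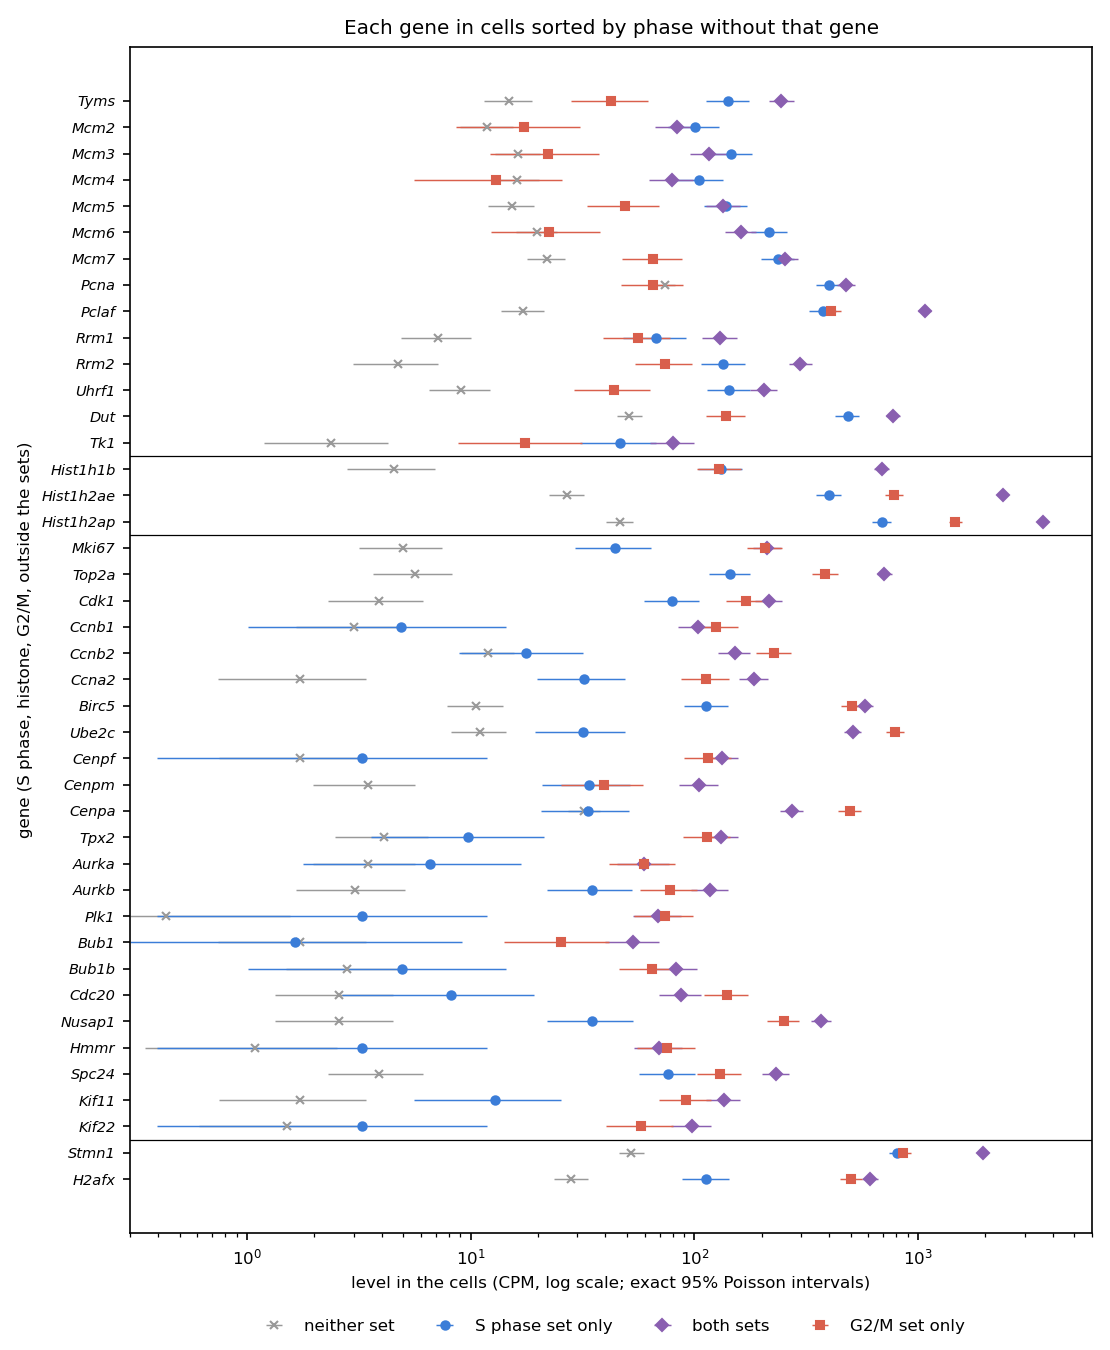
Level of each gene in cells passing by S phase genes only, by both sets, by G2/M genes only and by neither, with the gene's own UMIs left out of the call and exact Poisson 95% intervals, on a log axis in CPM (levels and bounds below 0.3 are drawn at 0.3). Mcm2 to Mcm6 are highest in S phase only cells, and Ube2c, Cenpa, Cdc20 and Ccnb2 in G2/M only cells.

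Other genes of the cycle, which gave no call, were compared between the 407 division-positive and the 1342 other cells at full depth, where 4.88% of 10562 genes were at least 2-fold higher and 2.78% lower (median log2 ratio over all genes 0.02). All 42 genes were higher, but 37 of them made the calls. T lineage-like cells were 91 of the 407 positive but only 18 of the 1342 other cells. The pooled cells therefore differed in class make-up, and its part in the pooled values was not tested. Of 45 other replication genes 39 were at least 2-fold higher (median log2 1.59), of 83 other mitosis genes 75 (1.94), and of 46 other histone genes 27 (64 were listed, and the rest had too few UMIs), with none lower. Lig1, the ligase that joins new DNA fragments, stood at 150.1 against 14.1 CPM, and Gmnn, geminin, which blocks a second round of licensing, at 193.7 against 23.4 CPM. Cdca3 and Cdca8, proteins of mitotic entry and of the passenger complex, stood at 159.6 against 4.54 and at 158.7 against 6.05 CPM. Hist1h1d, another linker histone, stood at 77.3 against 4.54 CPM. Of 15 genes listed for the anaphase-promoting complex, Fzr1 included, only 2, Anapc15 and Anapc5, were at least 2-fold higher, and Cdc26 stood at 71.4 against 67.5 CPM.

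Genes of cell cycle entry and its brakes behaved less uniformly. Of 16 entry genes 10 were at least 2-fold higher, with Ccne2, cyclin E2, at 66.9 against 3.03 CPM. Of 14 brake genes 2 were higher and 3 lower. Cdkn2c, an inhibitor of Cdk4 and Cdk6, stood at 55.5 against 7.57 CPM, and Rbl1, the pocket protein p107, was higher by a log2 ratio of 1.36. In the other direction Btg1, an antiproliferative factor, stood at 337 against 869.1 CPM (log2 -1.34), and Cdkn1a, the inhibitor p21, at 82.8 against 207.5 CPM (log2 -1.23). Btg1 was lower in each class compared, at 285.6 against 802.8 CPM in DC-like, 436.9 against 1036.5 in monocyte-like, 189.4 against 525.6 in neutrophil-like and 387.3 against 1530.4 CPM in T lineage-like cells.

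Within classes the replication and mitosis lists are read against a background that varied. Other replication genes at least 2-fold higher in positive cells were 37 of 43 in DC-like cells (3.77% of all genes), 23 of 26 in monocyte-like (6.41%), 12 of 21 in neutrophil-like (9.49%) and 36 of 39 in T lineage-like cells (28%, with only 18 cells that were not positive). Other mitosis genes were 59 of 65, 42 of 47, 38 of 44 and 69 of 74 in the same order. The brakes were 2 higher and 2 lower of 14 in DC-like, 2 and 3 of 11 in monocyte-like, 2 and 4 of 12 in neutrophil-like and 1 and 4 of 11 in T lineage-like cells. Of all genes, 1.77, 10.4, 8.89 and 9.22% were at least 2-fold lower in the same order. Of the anaphase-promoting complex 0 of 15 were higher in DC-like, 2 of 10 in monocyte-like, 2 of 8 in neutrophil-like and 7 of 11 in T lineage-like cells.

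Across the 3188 cells, the genes outside the 42 most like the S phase sum were Tuba1b (Pearson r 0.49), Tubb5 (0.48), Ptma (0.45), Lig1 (0.44), Cks1b, Gmnn and Smc2 (each 0.43), Cdca3 (0.41), Hmgb1 (0.40) and Anp32e (0.39). Those most like the G2/M sum were Cdca3 (0.62), Cdca8 (0.60), Hmgb2 (0.57), Cks1b and Smc2 (each 0.54), Lockd and Hmgn2 (each 0.53), Spc25 (0.52), Tubb5 (0.51) and Ube2s (0.49). All were computed on log-scaled counts per 10000 UMIs, and the cells share 1 library and differ in depth, so these values describe the library and carry no test.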

How the data were processed

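The authors deposited UMI counts per gene and cell barcode made with Cell Ranger 6.0.0 (2021) and 8.0.0 (2024), per the file headers, on mm10, per the submitters' processing notes. Only the 2021 counts were analysed by gene; of the 2024 counts only the depth was used. Barcodes with at least 500 UMIs, 300 genes and at most 10% mitochondrial UMIs were kept. Cells were clustered with scanpy 1.11.5 (2000 variable genes, 30 components, 15 neighbours, resolution 0.5) without 302 cell cycle genes, and clusters were named from marker lists.

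Levels are summed UMIs per 1000000 UMIs (CPM) with exact Poisson 95% intervals, and shares have exact Clopper-Pearson intervals. Both cover counting error only. Ratios add 10 CPM to both sides and need 15 UMIs. With 1 library there was no test. Doublets were kept: Scrublet called 3 cells, 0.0941%, too few to have worked, so an alternative left out the 6% with the highest scores. The comparison and intervals were tested on simulated data. Promoters were matched by symbol or, through GENCODE transcripts of the Ensembl ID, by Entrez gene ID.

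The 42 genes, the other gene lists and the markers were chosen with earlier results of these data known. Named were the 3 genes of each set with the most UMIs, up to 4 genes of each other list with the largest ratio above 50 CPM, the 10 genes most like each sum, and promoters of the 2 S phase and 2 G2/M genes with the most UMIs that held their set's element. Other genes named were chosen after their values were seen. Alternatives changed the thinning depth, threshold, cell filter, clustering, doublet removal, scaling and added CPM. Those without thinning, at 500 UMIs and without the Elane cluster were chosen after seeing the data.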

Additional observations from a re-analysis of the deposited data

How the results depend on the processing

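Among the 5 largest classes, the T lineage-like class stayed highest for all 3 sets under every alternative that gave class levels. The order of the middle classes changed. The unnamed cluster found with all genes was not ranked with them. The division-positive share depends on depth and threshold. In the order all, T lineage-like, monocyte-like, neutrophil-like, DC-like and macrophage-like cells it was 13.5, 63.5, 10.9, 13.5, 11.4 and 3.68% at 1000 UMIs, and 54.9, 93.3, 76.6, 76.7, 46.3 and 28.4% at 4000 UMIs. It was 18.6, 39.5, 16.0, 16.1, 24.4 and 12.0% with no thinning, and 9.79, 37.1, 9.25, 6.18, 7.78 and 3.82% at 500 UMIs with a threshold of 2; both were chosen after seeing the data. A threshold of 2 UMIs gave 27.7% of all, 24.2% of DC-like and 11.5% of macrophage-like cells (11.3% with the stricter filter at the main threshold), and a threshold of 5 gave 17.6% of all, 19.8% of neutrophil-like, 12.0% of DC-like and 4.37% of macrophage-like cells. Removing the 6% of cells with the highest Scrublet scores gave 35.8% in neutrophil-like cells, and clustering on all genes, where 112 positive cells lay in a cluster of their own, 10.3% in monocyte-like and 12.2% in DC-like cells, with histone sums of 81.15 against 1524.9 and 73.84 against 724.8 CPM. Of positive neutrophil-like cells 39.4% were G2/M only at a threshold of 2, 78.6% at 5 and 28.8% at 4000 UMIs. Cells passing by both sets were 33.4% of all at a threshold of 5, 33.9% at 1000 and 58.6% at 4000 UMIs, and 64.0% and 90.5% of T lineage-like cells at 1000 and 4000 UMIs. S phase only DC-like cells were 40.2% at 4000 UMIs. The T lineage-like level over the next of the 5 largest classes was 4.76 for S phase, 3.55 for histone and 4.20 for G2/M genes. It was 4.78 for histone genes without high Scrublet scores, 5.09 and 4.54 (S phase, histone) with the stricter filter, 6.14 and 6.72 on all genes, 4.47 and 4.29 at resolution 1.0, and 6.71, 5.32 and 5.86 (S phase, histone, G2/M) as a mean over thinned cells. With 1 CPM added, 1086 genes were higher and 923 lower in positive cells, against 515 and 294. Without the Elane cluster, chosen after seeing the data, the neutrophil-like share was 25.6% and its S phase level 487.1 CPM against 631.7. Other causes were not tested. No paired analysis was possible because 1 library was compared.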
